A study of Mus musculus with 6 samples.

Results

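The 9 genes described here, *Ttr*, *Folr1*, *Kl*, *F5*, *Sostdc1*, *Clic6*, *Enpp2*, *Aqp1* and *Slc4a5*, are genes for which the choroid plexus epithelium of the brain is known. They were chosen by gene symbol, after the log2 CPM (counts scaled to the size of the library, on a log2 scale) of these same libraries had been seen, so their levels and their differences are given as a description and support nothing on their own. All 9 were among the 13886 protein-coding genes of the deposited table, which had already been limited by the authors to genes over a minimum CPM. Sequencing was done on RNA bound to HA-tagged ribosomes, immunoprecipitated (IP) from medial amygdala (MeA) micropunches of Kiss1Cre+/Rpl22HA+/+ female mice, in which a Cre driven by *Kiss1* switches on the tag. Ovaries were removed (OVX) from every mouse at 8 weeks of age, and the mice were given estradiol (E2) capsules for 4 days to raise Cre expression, and left without E2 for 7 days. The E2 group then carried a new capsule for 5 days and the OVX group carried none. There were 3 OVX and 3 E2 libraries, each from its own pool of 4 mice. SEs and p-values come from limma, which draws the spread between a gene's pools toward that of genes at a similar level. A gene's SE can therefore be smaller or larger than its own SDs would give. The comparison asks which transcripts differ in level with E2. Only IP libraries of Cre+ mice were analysed here, so the level of a gene over the whole tissue, or in an IP without the tag, is not given.

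The choroid plexus is a sheet of secretory epithelium around a vascular core that hangs into the brain ventricles and makes most of the cerebrospinal fluid (CSF). Its cells move sodium, chloride, bicarbonate and water from blood to ventricle, and they secrete carrier proteins and signals into the CSF. Transthyretin, encoded by *Ttr*, carries thyroxine and, with retinol-binding protein, retinol, and is a hallmark of this epithelium in the brain. Some of the other genes are less restricted. *Enpp2* is also made by oligodendrocytes, and *Kl* is also known in neurons and kidney. The library labels name *Kiss1* cells of the MeA, which are neurons, so epithelial genes are not among the defining markers of the labelled cell type.

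Markers of the labelled cell type were read first. The 8 neuron markers of a list summed to between 8886 and 9493 CPM in the 6 libraries, and 8 astrocyte markers to between 1691 and 2217 CPM. General neuron markers do not tell *Kiss1* neurons from other neurons, so these sums do not test the label. *Kiss1* stood for 2 gene models in the table, and the higher one (ENSMUSG00000115958) had log2 CPM of 2.29, 1.82 and 1.13 in OVX replicates 1, 2 and 3 and 3.72, 3.80 and 3.45 in E2 replicates 1, 2 and 3 (difference 1.91, SE 0.26, limma adjusted p = 0.00475). The other *Kiss1* model had log2 CPM of -5.82, -0.65 and 0.10 in OVX and 2.97, 3.18 and 2.65 in E2, in the same order. Its difference was larger (5.05, SE 1.09), but it was not called (limma adjusted p = 0.0942). The scaled library sizes ran from 28.1M to 34.2M reads. Over all genes, limma called 32 higher and 8 lower with E2.

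The 250 bases before a RefSeq (GRCm38.p6) transcription start were read for 4 of the 9 genes, *Aqp1*, *F5*, *Kl* and *Slc4a5*. Windows of the other genes, *Ttr* among them, were not read, so the counts of matches cover only these 4 windows. A pair of these windows is shown because *F5* followed *Ttr* most closely within treatments and *Slc4a5* least closely, as given further on. Capitals mark the GC box GGGCGG on either strand, and all words below were searched on both strands.
F5: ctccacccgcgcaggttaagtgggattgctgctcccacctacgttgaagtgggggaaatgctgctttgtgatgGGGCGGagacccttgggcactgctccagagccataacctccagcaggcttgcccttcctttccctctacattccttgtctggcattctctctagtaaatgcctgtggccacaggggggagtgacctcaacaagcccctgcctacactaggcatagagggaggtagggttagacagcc
Slc4a5: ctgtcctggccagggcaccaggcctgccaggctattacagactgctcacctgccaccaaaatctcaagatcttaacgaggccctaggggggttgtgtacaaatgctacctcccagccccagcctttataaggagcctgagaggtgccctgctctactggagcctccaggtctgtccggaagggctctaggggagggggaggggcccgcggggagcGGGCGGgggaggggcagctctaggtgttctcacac
The *F5* window is chr1:164151585-164151834 and the *Slc4a5* window is chr6:83237125-83237374, both on the plus strand. The start used for *Slc4a5* lies inside the annotated gene, which begins further upstream. The GC box was in 4 of 4 windows, with 1 match each in *Aqp1*, *F5* and *Slc4a5* and 2 in *Kl*, and in 32.7% of all 32851 RefSeq windows of the same length. TATAAA was in 1 of 4, that of *Slc4a5*, where it lies on the minus strand and so does not appear in these letters as printed, against 12.4% of all windows. The core words TAATCC of OTX factors, TAATTG of MSX factors and TGTTTAC of forkhead factors were in 0 of 4, against 6.25%, 7.17% and 3.17%. These matches describe the letters of the windows only.

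By level, *Ttr* and *Enpp2* stood far above the rest. *Ttr* (ENSMUSG00000061808) had a mean of 9.39 log2 CPM, place 172 of 13886, and per kilobase of its longest transcript it held place 28. *Enpp2* had a mean place of 875 and, per kilobase, 833. *Kl* and *Clic6* were intermediate at places 7161 and 8206. *Slc4a5*, *F5*, *Sostdc1*, *Folr1* and *Aqp1* lay between places 11273 and 12101, near the low end of the table. On the scale of log2 CPM per kilobase the levels were 9.14 for *Ttr*, 6.19 for *Enpp2*, 2.34 for *Clic6*, 2.13 for *Kl*, 1.47 for *Folr1*, 1.09 for *Sostdc1*, 0.45 for *Aqp1*, 0.16 for *Slc4a5* and -0.38 for *F5*. Neighbours in this order from *Clic6* down differed by less than the range of either gene over the libraries, whereas the gaps between *Ttr*, *Enpp2* and *Clic6* were larger than those ranges. *Ttr* alone made up between 66.3% and 72.6% of the CPM summed over the 9 genes.

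The sum over the 9 genes was 1080, 1479 and 919 CPM in OVX replicates 1, 2 and 3 and 1309, 529 and 803 CPM in E2 replicates 1, 2 and 3. As a share of all counts rebuilt from the table this was 0.0527% to 0.147% of a library. OVX replicate 2 was the highest and E2 replicate 2 the lowest, and the groups overlapped, because E2 replicate 1 was above OVX replicates 1 and 3. In an IP library of a pool, fewer cells of a type, less RNA per cell and less RNA held in the IP without the tag cannot be told apart.

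Among the secreted proteins, *Ttr* had log2 CPM of 9.53, 9.94 and 9.30 in the OVX libraries and 9.89, 8.49 and 9.19 in the E2 libraries (here and below in the order of replicates 1, 2 and 3). The groups overlapped, with 1 E2 library next to the top and the lowest value also in an E2 library. The means were 9.59 ± 0.32 (SD, n = 3) and 9.19 ± 0.70 (SD, n = 3), and the difference of -0.40 (SE 0.25) did not pass the threshold (limma adjusted p = 0.719). It was -0.05 without E2 replicate 2, -0.23 without OVX replicate 2 and -0.75 without E2 replicate 1. *Enpp2* (chromosome 15, 54838901 to 54952892, minus strand), which encodes autotaxin, the secreted enzyme that makes lysophosphatidic acid (LPA), had 8.07, 8.59 and 7.77 in OVX and 8.13, 6.99 and 7.37 in E2. It kept the order of *Ttr* in all 6 libraries, and the groups overlapped through E2 replicate 1. Its difference was -0.64 (SE 0.23, limma adjusted p = 0.422), and it was -0.96 with an adjusted p of 0.0448 when E2 replicate 1 was left out. It was -0.39 without E2 replicate 2 (adjusted p = 0.802) and -0.42 without OVX replicate 2 (adjusted p = 0.562). Of its exonic bases, 345 are shared with *Gm26684*, and reads of the unstranded libraries cannot be assigned to either strand.

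*F5* encodes coagulation factor V, a cofactor of thrombin formation (chromosome 1, 164151838 to 164220277, plus strand). It had log2 CPM of 2.99, 3.25 and 2.70 in OVX and 2.77, 1.30 and 2.05 in E2. Its E2 replicate 1 lay just above the lowest OVX library, and the other E2 libraries lay below all OVX libraries. The difference was -0.94 (SE 0.31, limma adjusted p = 0.367), and it was -0.57 without E2 replicate 2. *F5* shares 262 exonic bases with *Gm16548* on the other strand.

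*Sostdc1* encodes a secreted antagonist of BMP and Wnt signaling (chromosome 12, 36314139 to 36318452, plus strand). It had log2 CPM of 2.42, 2.41 and 2.26 in OVX and 1.80, 1.19 and 1.47 in E2, which corresponds to 151, 181 and 134 against 105, 77 and 89 rebuilt counts. It was the 1 gene of the 9 whose groups did not overlap, every E2 library being below every OVX library, and 6.82% of all genes show this. The means were 2.36 ± 0.09 (SD, n = 3) and 1.49 ± 0.31 (SD, n = 3), with a difference of -0.88 (SE 0.25) and a limma adjusted p of 0.263. With any 1 library left out the difference stayed between -1.04 and -0.73, with adjusted p from 0.259 to 0.645.

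**Figure D1:**
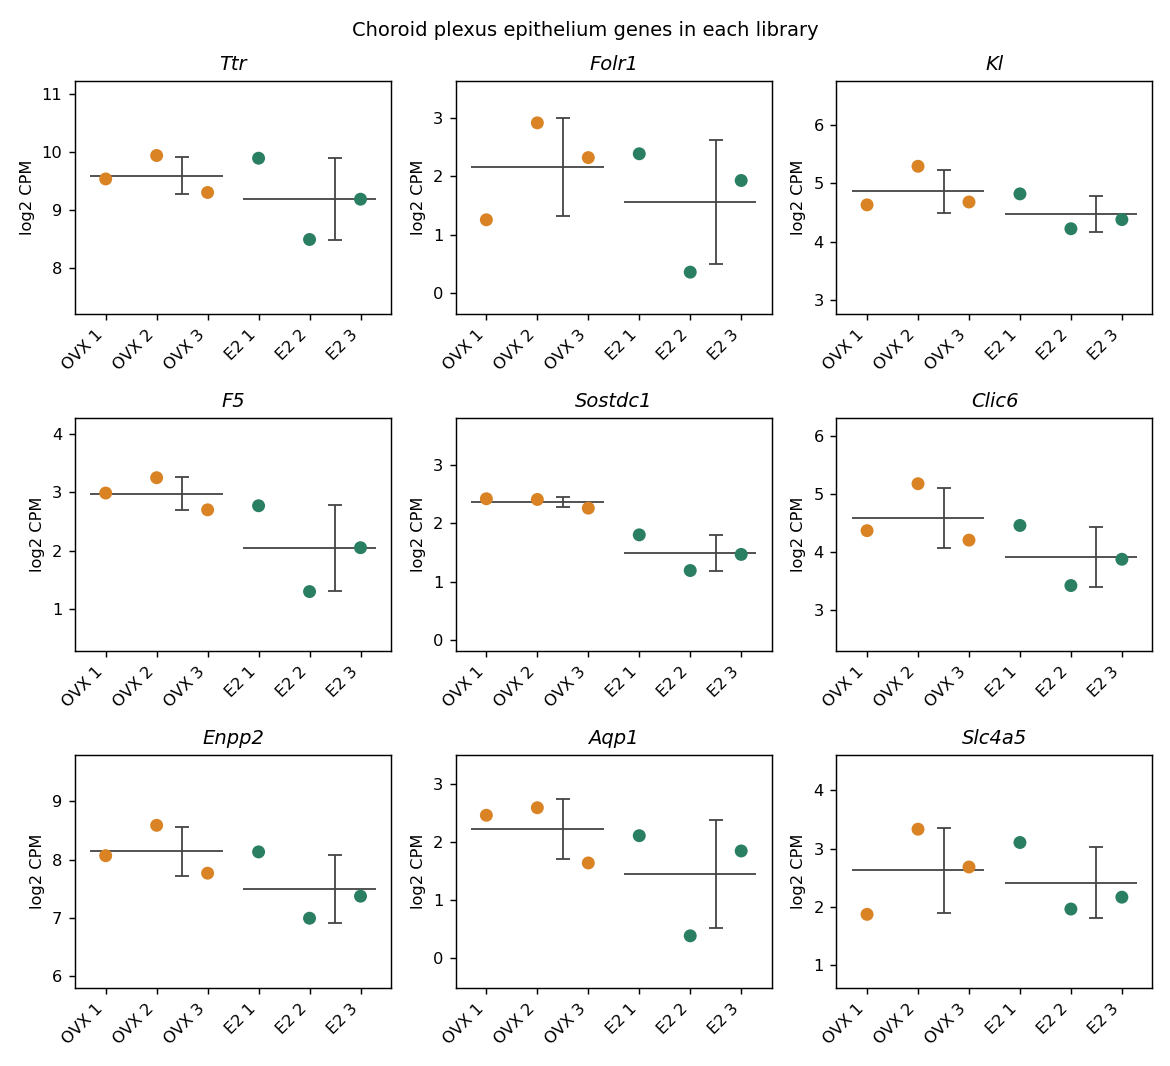
Log2 CPM (vertical axis, the same span of 4 units in each panel) of the 9 choroid plexus epithelium genes in the 3 OVX (orange) and 3 E2 (green) libraries, with a horizontal line at each group's mean and a bar of ± 1 SD. E2 replicate 2 is the lowest point for 8 of the 9 genes, and *Sostdc1* is the panel in which the groups do not overlap.

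Of the receptors, *Folr1*, the folate receptor through which the epithelium passes folate into the CSF (chromosome 7, 101858331 to 101870788, minus strand), had log2 CPM of 1.26, 2.92 and 2.32 in OVX and 2.39, 0.36 and 1.93 in E2. It had the widest range of the 9, 2.56 on the log2 scale or 5.91-fold, on rebuilt counts of only 67, 258 and 140 in OVX and 158, 43 and 123 in E2. The groups overlapped widely, and the difference was -0.61 (SE 0.48, limma adjusted p = 0.802). It was -0.01 without E2 replicate 2, -0.23 without OVX replicate 2, -1.02 without E2 replicate 1 and -1.06 without OVX replicate 1. *Kl*, which encodes klotho, the co-receptor for FGF23 that is also shed into the CSF (chromosome 5, 150952607 to 150993817, plus strand), had the narrowest range, 1.07. Its log2 CPM were 4.63, 5.30 and 4.68 in OVX and 4.82, 4.22 and 4.38 in E2. Only E2 replicate 1 lay within the OVX values, and the difference was -0.40 (SE 0.18, limma adjusted p = 0.561), or -0.18 without OVX replicate 2.

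Of the channels and transporters, *Aqp1*, the water channel of the ventricular membrane (chromosome 6, 55336432 to 55348555, plus strand), had log2 CPM of 2.46, 2.59 and 1.64 in OVX and 2.11, 0.39 and 1.85 in E2. E2 replicate 2 stood below every other library and the groups overlapped, and the difference was -0.78 (SE 0.41, limma adjusted p = 0.636), or -0.25 without E2 replicate 2. *Clic6*, a member of the chloride intracellular channel family (chromosome 16, 92485736 to 92541243, plus strand), had 4.37, 5.18 and 4.21 in OVX and 4.46, 3.43 and 3.88 in E2. It kept the same order of libraries as *Ttr* and *Enpp2*, with a difference of -0.66 (SE 0.25, limma adjusted p = 0.454), or -0.42 without E2 replicate 2 and -0.37 without OVX replicate 2. *Slc4a5*, a sodium bicarbonate cotransporter (chromosome 6, 83219828 to 83304945, plus strand), had 1.87, 3.33 and 2.68 in OVX and 3.11, 1.96 and 2.17 in E2. It was the exception in its lowest library, which was OVX replicate 1, and its difference of -0.22 (SE 0.35, limma adjusted p = 0.927) became 0.13 without OVX replicate 2 and 0.006 without E2 replicate 2.

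Over the 9 genes, limma called 0 at an adjusted p under 0.05, where 0.288% of all genes were called. With voom weights on the rebuilt counts the count was also 0. At an unadjusted p under 0.05 there were 5, *Kl*, *F5*, *Sostdc1*, *Clic6* and *Enpp2*, all with the lower mean in E2, against 4.34% of all genes in that direction. Without the mean-variance trend, limma unadjusted p was 0.143 for *Kl*, 0.108 for *Clic6* and 0.110 for *Enpp2*. With robust empirical Bayes it was 0.120, 0.156 and 0.185. *F5* (0.0465 and 0.0131) and *Sostdc1* (0.00160 and 0.00267) stayed under 0.05 in these fits. The E2 mean was below the OVX mean for 9 of 9, against 48.9% of all genes. The median difference of the 9 was -0.64, and that of all genes was 0.003. Because the genes were chosen with these values known, and because they varied together, the 9 are not 9 separate observations.

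**Figure D2:**
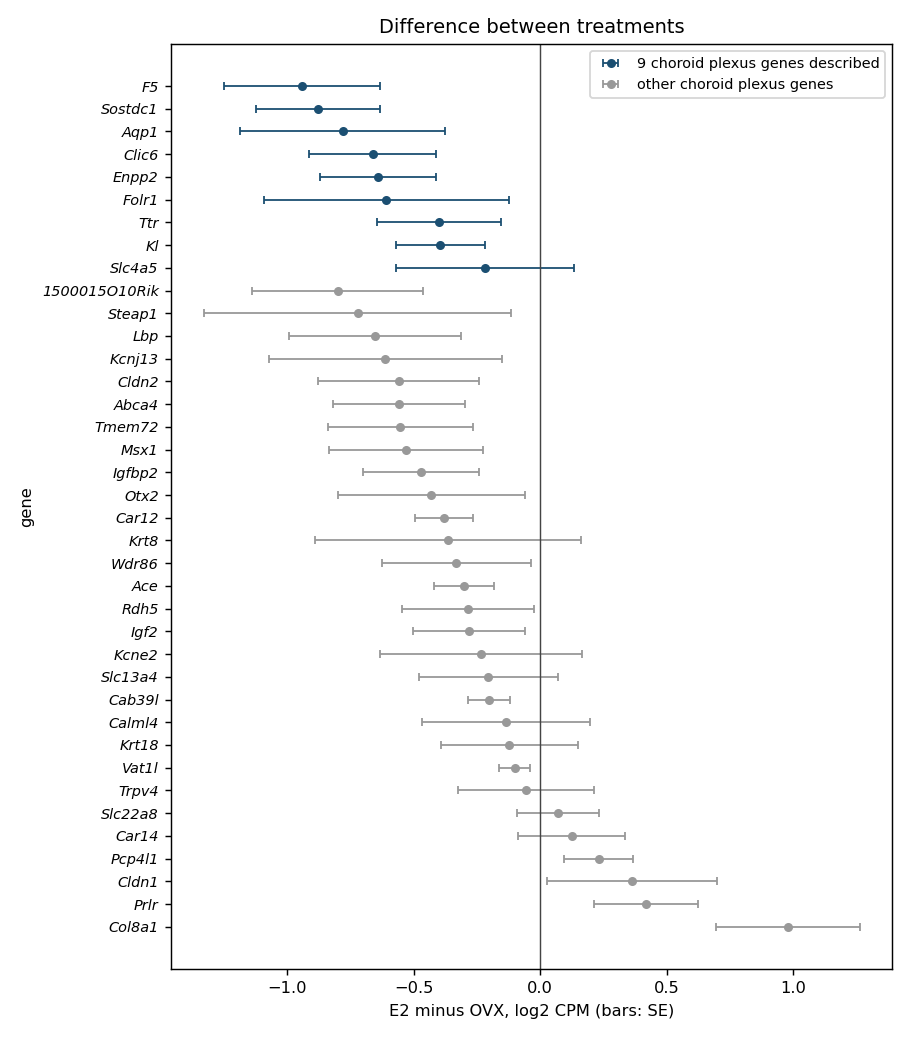
Difference in log2 CPM between E2 and OVX (horizontal axis, E2 minus OVX, bars of ± 1 SE from limma) for the 9 genes (blue) and 29 other choroid plexus epithelium genes (gray). All 9 lie left of 0, from -0.94 for *F5* to -0.22 for *Slc4a5*, and the other genes spread from -0.80 for *1500015O10Rik* to 0.98 for *Col8a1*.

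The genes also varied between libraries of the same treatment. E2 replicate 2 was the lowest of the 6 libraries for 8 of the 9 genes, the exception being *Slc4a5*, and it was the lowest for 17.0% of all genes. OVX replicate 2 was the highest for 8 of 9, the exception being *Sostdc1*, and it was the highest for 16.2% of all genes. The median range of the 9 over the libraries was 1.60 on the log2 scale, and that of all genes was 0.36.

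**Figure D3:**
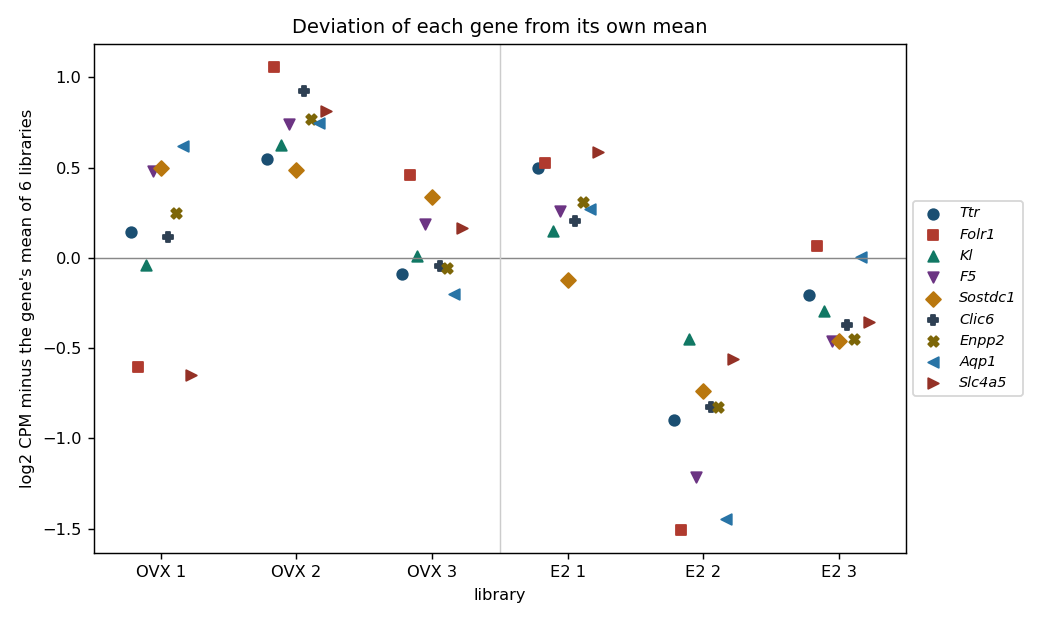
Log2 CPM of each of the 9 genes minus its own mean over the 6 libraries (vertical axis), by library (horizontal axis), with 1 marker per gene. All 9 points lie above 0 in OVX replicate 2 and below 0 in E2 replicate 2, and E2 replicate 1 lies above 0 for 8 of them.

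How closely the genes moved together over the 6 libraries was measured by the correlation with *Ttr*, given as a description, since the values share libraries and treatments. Pearson's r with *Ttr* was 0.950 for *Enpp2*, 0.926 for *F5*, 0.921 for *Clic6*, 0.919 for *Aqp1*, 0.873 for *Kl*, 0.833 for *Folr1*, 0.733 for *Slc4a5* and 0.717 for *Sostdc1*. It was over 0.5 for 8 of 8, and for 17.2% of all other genes. Over the 36 pairs of the 9 genes the median r was 0.836, from 0.391 for *Sostdc1* with *Slc4a5* to 0.983 for *Clic6* with *Enpp2*. Taken on deviations from each treatment's mean, r with *Ttr* had a median of 0.919, with 0.995 for *F5*, 0.957 for *Sostdc1* and 0.730 for *Slc4a5*. With both of the libraries farthest from the median of *Ttr*, OVX replicate 2 and E2 replicate 2, left out, the median fell to 0.586. *Clic6*, *Enpp2* and *Kl* still had r of 0.877, 0.874 and 0.832, and *Folr1* and *Sostdc1* had 0.169 and 0.128, so for these latter genes the likeness rests on those libraries.

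*F5* was also compared with *Ttr* as a ratio within each library, a comparison chosen after the values were seen. The log2 ratio of *F5* to *Ttr* was -6.55, -6.68 and -6.60 in OVX and -7.12, -7.20 and -7.14 in E2. The SD of the ratio was 0.07 in OVX and 0.04 in E2, against SDs of 0.32 and 0.70 for *Ttr* and 0.28 and 0.74 for *F5*, and the groups did not overlap. The means of the ratio differed by -0.54. Of the 8 genes compared with *Ttr* in this way, *F5* was the 1 whose ratio was lower in every E2 library than in every OVX library, and 0.0504% of all other genes were. That share depends on the spread of *Ttr*, which enters every ratio, so it does not measure how unusual *F5* is. By log2 CPM alone, 6.82% of all genes lay lower in every E2 library. On the list of 29 other choroid plexus genes described further on, the ratio to *Ttr* was lower in every E2 library for 1, *1500015O10Rik*, and higher in every E2 library for 6, *Prlr*, *Trpv4*, *Cldn1*, *Pcp4l1*, *Car14* and *Col8a1*. The share of all genes with a higher ratio in every E2 library was not computed, so nothing is read from the 6. The ratio of *Kl* to *Ttr* differed by only 0.005 between treatments, with SDs of 0.16 in OVX and 0.41 in E2.

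The 5 genes with the highest r with *Ttr*, among genes with an SD of at least 0.5 over the libraries, were *Msx1* (0.983), *Ctsh* (0.965), *Kcnj13* (0.964), *Krt8* (0.955) and *Mfrp* (0.950). *Msx1*, which encodes a homeodomain factor, had log2 CPM of 2.94, 3.30 and 2.63 in OVX and 3.06, 1.63 and 2.58 in E2. *Kcnj13*, an inwardly rectifying potassium channel, had 2.29, 3.13 and 2.42 in OVX and 3.08, 0.63 and 2.30 in E2. Both had their highest value in OVX replicate 2 and their lowest in E2 replicate 2, as *Ttr* did. *Msx1*, *Kcnj13* and the keratin gene *Krt8* were also on the list of other choroid plexus genes, and 623 exonic bases of *Kcnj13* are shared with *Gigyf2*.

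A list of 32 other choroid plexus epithelium genes had 29 in the table, and *Slco1a5*, *Lmx1a* and *Ecrg4* were not listed under these symbols. *1500015O10Rik*, an older symbol of *Ecrg4*, was listed. The mean was lower in E2 for 23 and higher for 6, with a median difference of -0.29, and limma called 0, or 1 at most with a library left out. Of all genes, 48.9% had a lower mean in E2. At an unadjusted p under 0.05, 4 were lower, against 4.34% of all genes, and 1 was higher, against 585 of 13886. The 25 with r over 0.5 with *Ttr* included *Otx2*, a homeodomain factor that specifies this epithelium, with log2 CPM of 1.76, 2.71 and 2.11 in OVX and 2.54, 0.92 and 1.82 in E2. E2 replicate 2 was the lowest library for 20 of the 29, against 17.0% of all genes. The largest differences were 0.98 for *Col8a1*, a collagen gene (SE 0.28, limma adjusted p = 0.279), and -0.80 for *1500015O10Rik* (SE 0.34, limma adjusted p = 0.532). The highest levels were those of *Vat1l* (7.50) and *Pcp4l1* (5.54), genes that are also found in neurons, with differences of -0.10 and 0.23.

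The other genes of the pathways in which the 9 act were read from lists. For each list on which limma called 0 genes, the fit with voom weights also called 0. As a background for these lists and the cell type lists below, 48.9% of all genes had a lower mean in E2. At an unadjusted p under 0.05, 4.34% of all genes were lower, and 585 of 13886 were higher. Of 24 listed gene models of ion transport for CSF secretion, limma called 0 and the mean was lower in E2 for 14 models and higher for 10 (unadjusted p under 0.05 for 1 lower and 2 higher). With a library left out, at most 1 was called. The highest, the sodium pump gene *Atp1b1* (10.38), differed by 0.04, and neurons use it as well. *Slc12a2*, the sodium, potassium and chloride cotransporter of the ventricular membrane, had 5.08, 5.48 and 5.12 in OVX and 5.38, 4.92 and 5.10 in E2. *Slc12a7*, a potassium and chloride cotransporter, had a difference of 0.65 (SE 0.20, limma adjusted p = 0.321).

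Thyroid hormone and retinol carriage, the role of *Ttr*, had 13 of 14 genes in the table, of which 11 were lower and 2 higher in E2, and limma called 0. At an unadjusted p under 0.05, 5 were lower, against 4.34% of all genes, and 48.9% of all genes had a lower mean. *Thra*, a thyroid hormone receptor gene, was the highest at 9.91 (difference -0.13, SE 0.05, limma adjusted p = 0.537), and *Crym*, which binds thyroid hormone in the cytosol, followed at 6.76 (-0.18). *Rbp4*, the retinol carrier that pairs with transthyretin, differed by -0.84 (SE 0.36, limma adjusted p = 0.537). *Slc16a10*, a thyroid hormone transporter, differed by -1.92 (SE 0.96, limma adjusted p = 0.613), and its lowest library was E2 replicate 1, at -4.33.

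For *Kl*, 5 of 9 klotho and FGF receptor genes were listed, and *Klb*, *Fgf23*, *Fgfr4* and *Trpv5* were not. *Fgfr1*, the receptor with which klotho forms the FGF23 receptor, rose with E2. Its log2 CPM were 6.87, 6.99 and 7.03 in OVX and 7.50, 7.81 and 7.67 in E2 (difference 0.70, SE 0.08, limma adjusted p = 0.000948). Every E2 library was above every OVX library, as for 951 of 13886 genes. *Fgfr1* was called with each library left out in turn, but not without the mean-variance trend (adjusted p = 0.315). The other 4 were not called, and the larger ones were *Adam17*, a protease that sheds klotho (0.21, SE 0.15, limma adjusted p = 0.768) and *Fgfr3* (0.08).

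The partners of the remaining genes gave 0 calls each. Folate uptake and use had 16 of 19 genes, 6 lower and 10 higher in E2 (1 at an unadjusted p under 0.05), with a difference of -0.21 for *Mtrr*, methionine synthase reductase (limma adjusted p = 0.743). *Tyms*, thymidylate synthase, averaged 0.09 ± 0.17 log2 CPM in OVX and 1.09 ± 0.43 log2 CPM in E2 (SD over 3 libraries each; SE of the difference 0.39, limma adjusted p = 0.480). LPA receptors and phosphatases, the targets and degraders of the product of autotaxin, had 8 of 11 genes, 5 lower and 3 higher (0 at an unadjusted p under 0.05). Their largest differences were -0.28 for *Lpar2* and -0.15 for *Plpp1*. Wnt and BMP partners of *Sostdc1* had 15 of 16 genes, 9 lower and 6 higher (1 at an unadjusted p under 0.05), with *Wnt5a* at 0.50 (SE 0.17, limma adjusted p = 0.418) and the BMP receptor gene *Bmpr1b* at 0.29. Coagulation partners of *F5* had 8 of 16 genes, 4 in each direction (1 at an unadjusted p under 0.05), with *F3*, tissue factor, at 0.38 (SE 0.12, limma adjusted p = 0.311) and *Serpinc1*, antithrombin, at -0.39 (SE 0.27).

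Markers of the other cell types that a MeA punch or its ventricle border could hold were set beside the 9 genes. The ependymal list, for the ciliated cells that line the ventricle, had 13 of 14 genes and summed to 77.2, 66.9 and 62.6 CPM in OVX and 95.0, 53.5 and 54.2 CPM in E2. It was lowest in E2 replicate 2, like the 9 genes, and highest in E2 replicate 1, unlike them. The list had 9 of 13 genes with a Pearson's r with *Ttr* over 0.5, against 17.2% of all other genes, and a median r of 0.629. Its median difference was -0.09, and limma called 0, as it did at an unadjusted p under 0.05. *Foxj1*, the master factor of motile cilia, had 3.44, 3.12 and 2.86 in OVX and 3.71, 2.38 and 3.06 in E2.

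Oligodendrocyte genes, of interest for *Enpp2*, had a median difference of 0.12 and 0 of 8 lowest in E2 replicate 2, and their sum was 1753, 2225 and 1581 CPM in OVX and 2441, 1937 and 1731 CPM in E2. Neuron genes had a median difference of 0.01 and 0 of 8 lowest in E2 replicate 2. Astrocyte genes had means higher in E2 for 8 of 8, with a median difference of 0.13. Microglia genes had means lower for 6 of 8, against 48.9% of all genes. Endothelial and mural genes were highest in OVX replicate 2 for 7 of 8, against 16.2% of all genes. Pearson's r with *Ttr* was over 0.5 for 5 of 8 genes on each of the oligodendrocyte, microglia, and endothelial and mural lists. It was over 0.5 for 1 of 8 astrocyte genes and 0 of 8 neuron genes, against 17.2% of all other genes. The median r with *Ttr* was 0.31 on the astrocyte list and -0.60 on the neuron list, against 0.01 for all other genes. The neuron genes thus tended to move opposite to *Ttr*, over a small median range of 0.22 on the log2 scale. Limma called 0 genes on these 5 lists, and at an unadjusted p under 0.05 there were 2 astrocyte, 1 oligodendrocyte and 1 microglia genes. With a library left out, at most 1 astrocyte gene was called. Erythroid genes went the other way from the 9, with 4 of 4 higher in E2. Their sums were 121, 228 and 180 CPM in OVX against 280, 347 and 447 CPM in E2. Of these genes 2, *Hba-a1* and *Hba-a2*, were called, where 0.288% of all genes were called. The part of any of these cell types in the values of the 9 genes was not tested.

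**Figure D4:**
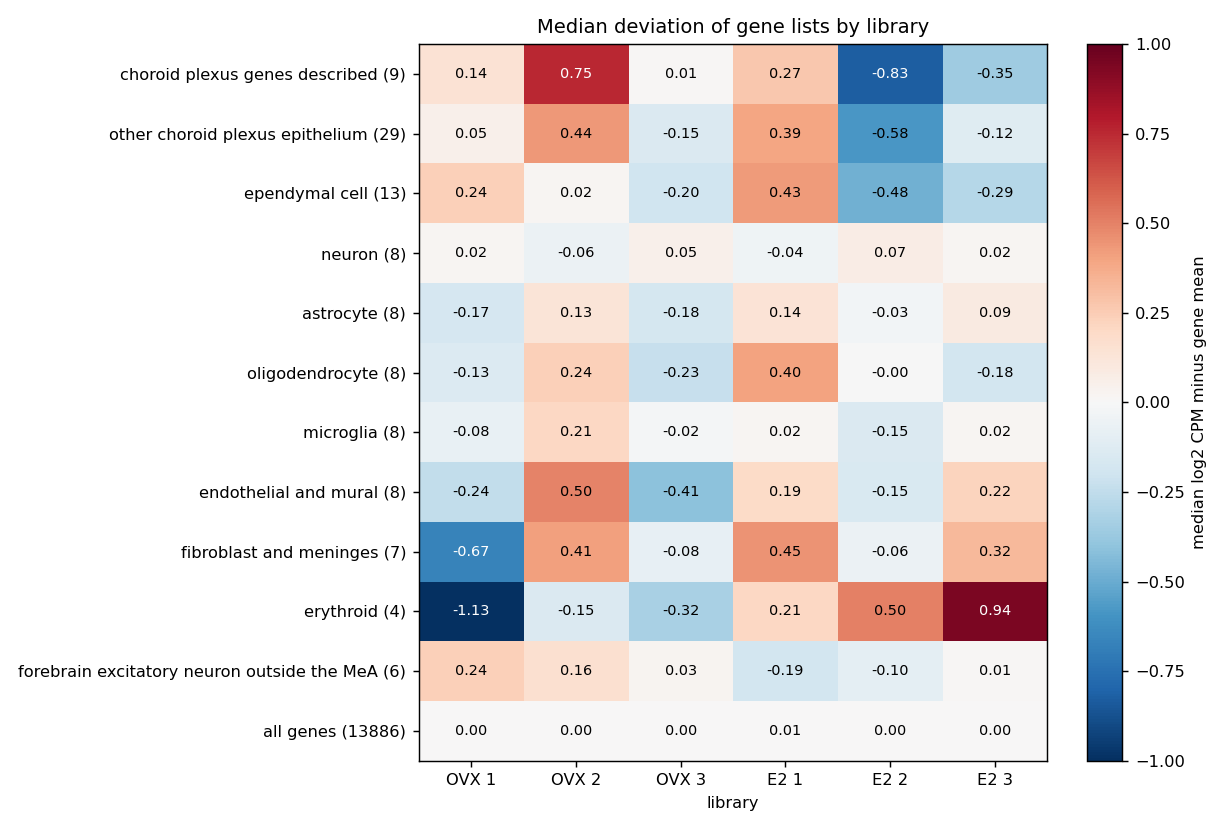
Median over each gene list of the log2 CPM minus the gene's own mean (color and printed value), by library (columns), with the number of gene models listed in parentheses. The 9 genes go from 0.75 in OVX replicate 2 to -0.83 in E2 replicate 2, the neuron list stays between -0.06 and 0.07, and the ependymal list is highest in E2 replicate 1.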

How the data were processed

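RNA was sequenced from 6 MeA IP samples, 3 OVX and 3 E2, each a pool of 4 mice. Reads were trimmed with Trimmomatic 0.38, aligned with STAR 2.6.0a and quantified with RSEM by the authors, per the methods and the submitters' processing notes. The deposited values were log2 CPM, which the authors made with TMM scaling and voom for protein-coding genes over a minimum CPM, so genes under that minimum are not in the table. The libraries were unstranded. A deposited table of the authors' own comparison (log2 fold changes, scores, p-values and adjusted p-values) was not used.

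The log2 CPM of all 13886 genes were tested here with limma 3.58.1 in R 4.3.3, with treatment as the only term, a mean-variance trend, and 2-sided p-values. The p-values were adjusted over the whole table by the Benjamini-Hochberg method, and genes were called under 0.05. SEs and p-values use variances moderated toward the trend over all genes, with 9.5 prior degrees of freedom. Differences are E2 minus OVX. Counts were rebuilt from the log2 CPM, setting each library's lowest value to a count of 0 (voom adds 0.5). Scaled library sizes were 28.1M to 34.2M reads. No count interval was computed, since reads without molecular identifiers are not independent molecules. Replicate numbers were not used to pair libraries, because same-numbered libraries did not deviate together (correlations across genes of -0.02, -0.12 and -0.08). Gene positions and lengths came from GENCODE mouse release M21 (GRCm38), and promoter windows came from RefSeq.

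The genes and lists were chosen with earlier results of these data known. The genes named were the 9 genes, the genes of each list past the threshold or otherwise the largest differences and highest means, the 5 genes most like *Ttr*, and list genes with 1 library over 1 log2 unit above the next. A few of the genes so selected are left out of the text. *Foxj1*, *Otx2*, *Slc12a2*, *Pomc*, *Kiss1* and the ratio of *F5* to *Ttr* were chosen after their values were seen. The script was tested on simulated data. Alternatives were no trend, voom weights, median centring, quantile normalization, 1 added to the CPM before the log, a floor of 1 on the mean log2 CPM, robust empirical Bayes, a replicate block and each library left out.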

Additional observations from a re-analysis of the deposited data

How the results depend on the processing

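Of all genes, limma called 40, and without the mean-variance trend it called 0, the cause of which was not tested. The count was 46 with voom weights and 35 with a replicate block by label number, and it ran from 20 (without E2 replicate 2) to 66 (without E2 replicate 3) with 1 library left out, with 21 without OVX replicate 1 and 26 without E2 replicate 1. Of the 9 genes, 0 were called in every fit but 1. Without E2 replicate 1 the count was 1, *Enpp2*, so over the libraries left out in turn it ran from 0 to 1. The difference of *Slc4a5* ran from -0.60 to 0.13 with 1 library left out, turning from -0.22 to 0.13 without OVX replicate 2 and to 0.00604 without E2 replicate 2. In 123 of the other values of a gene's difference under an alternative, the direction and the side of the threshold stayed the same, while the size of the differences of 8 of the 9 genes, all but *Sostdc1*, moved by over 1.5 times with some library left out. The replicate block changed no call among the 9 genes. Median centring and quantile normalization moved the median difference of all genes by -0.0091 and -0.00707. The r with *Ttr* moved by more than the set spread in 8 values and by less in 80, among them *Folr1* (0.513) and *Sostdc1* (0.362) without E2 replicate 2 and *Slc4a5* (0.945) without OVX replicate 1. Leaving out both libraries farthest in *Ttr*, and using deviations from treatment means, were alternatives chosen after seeing the data. Low counts limit *Folr1*, *Aqp1*, *Sostdc1* and *F5*, which had under 100 rebuilt counts in at least 1 library.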

Other observations

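Some gene groups outside the choroid plexus stood out in the same libraries. The alpha globin genes rose with E2, *Hba-a1* by 1.01 (SE 0.16, limma adjusted p = 0.0124) and *Hba-a2* by 1.04 (SE 0.20, limma adjusted p = 0.0469). These genes are near-identical copies, so the split of reads between them is uncertain. Leaving out E2 replicate 2 gave adjusted p of 0.0542 and 0.142, robust empirical Bayes gave 0.348 and 0.547, and without OVX replicates 1 and 3 in turn *Hba-a1* had 0.0620 and 0.0572 and *Hba-a2* had 0.0994 and 0.0973. *Hba-a2* also had 0.0875 without E2 replicate 3. *Col1a1*, the collagen gene that led the fibroblast and meninges list, rose by 1.18 (SE 0.22, limma adjusted p = 0.0469), with log2 CPM of 2.53, 3.62 and 3.15 in OVX and 4.25, 4.06 and 4.53 in E2. It was called without OVX replicate 2, and with any other library left out its adjusted p was between 0.0990 and 0.129. Of the 7 genes of that list in the table, 6 were higher and 1 lower in E2, and 1 was called, where 0.288% of all genes were called.

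The pituitary hormone genes *Gh* and *Prl* varied widely between libraries. *Gh* had log2 CPM of -0.04, 7.66 and 3.68 in OVX and 3.36, 3.41 and -4.43 in E2, and *Prl* had 2.08, 9.68 and 6.08 in OVX and 6.80, 7.76 and -1.26 in E2. Both were highest in OVX replicate 2 and lowest in E2 replicate 3, whereas the choroid plexus genes were mostly lowest in E2 replicate 2. *Pomc*, listed with them as a pituitary gene, did not share this contrast. Its log2 CPM was highest in OVX replicate 2 (1.63) and lowest in E2 replicate 2 (0.14), just below OVX replicate 1 (0.20). Pearson's r with *Ttr* was 0.780 for *Pomc*, 0.309 for *Gh* and 0.163 for *Prl*. Excitatory neuron genes of the forebrain outside the MeA had lower means in E2 for 6 of 6, against 48.9% of all genes. The median difference was -0.30. Limma called 0 at an adjusted p under 0.05, likewise with voom weights. At an unadjusted p under 0.05, 4 were lower, against 4.34% of all genes. With a library left out, at most 1 was called. The difference was -0.54 for *Neurod6* (SE 0.19, limma adjusted p = 0.409). It was -0.42 for *Slc17a7* (SE 0.11, limma adjusted p = 0.174), a gene chosen after its values were seen. Every E2 library lay below every OVX library for *Slc17a7*, as for 6.82% of all genes.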
